A study of Mus musculus with 6 samples.

Results

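Desert hedgehog signalling in the mouse testis was followed through 9 genes: the ligand Dhh, the receptor Ptch1, the co-receptor Boc, the ligand-binding inhibitor Hhip, the transducer Smo, the inhibitor Sufu and the GLI transcription factors Gli1, Gli2 and Gli3. They were taken by gene symbol from a list of named pathway genes, and all 9 were found among the 55850 gene rows of the deposited table. The RNA came from whole testis of conditional knockout mice (cKO, 3 libraries) and of wild-type mice (WT, 3 libraries), all untreated, and the series title places the loss of the splicing factor SRSF2 in Sertoli cells. The sources used here give neither the promoter that drives the deletion, nor the deleted part of the gene, nor the age of the mice. Nor do they state that each sample is a separate animal, and p-values therefore describe the spread between these libraries, possibly only a technical one. Levels are in FPKM, a read number per length of the gene and per size of the library.

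Sertoli cells, the somatic cells inside the seminiferous tubule, secrete DHH. The ligand binds PTCH1 on Leydig, peritubular and interstitial progenitor cells, which frees SMO in the primary cilium from repression and lets GLI proteins act as activators. Ptch1, Gli1 and Hhip are themselves transcribed in response, so their RNA is commonly read as the output of the pathway. Mice without Dhh have defects of Leydig cells and of the peritubular layer.

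The cKO libraries held 16185976 to 17281330 recovered reads and the WT libraries 16070287 to 16479907. Srsf2 was at 74.0, 87.3 and 87.3 FPKM in cKO testis, against 127, 96.7 and 102 FPKM in WT testis, so the groups did not overlap, with an adjusted p over all genes of 0.384 by limma. Whole testis also holds Srsf2 RNA of cells other than Sertoli cells. The 18S ribosomal RNA gene took 0.727 to 0.835% of reads in cKO and 1.58 to 2.09% in WT libraries, and genes of the mitochondrial genome took 2.39 to 2.97% in cKO and 1.66 to 1.98% in WT. Among the 14238 genes kept by a minimum mean of 1 FPKM, 2 passed the threshold of 0.05 after Benjamini-Hochberg adjustment, which is 0.0140%, and 0 passed when any 1 library was left out. None of the 9 hedgehog genes passed (the lowest adjusted p was 0.379, for Dhh). At an unadjusted p under 0.05, 1 of the 9 was called, against 12.3% of all tested genes, and the 1 call, Dhh, was on the lower side, where 7.68% of all tested genes lay, with 4.65% on the higher side. All 9 genes passed the filter on low values.

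**Figure D1:**
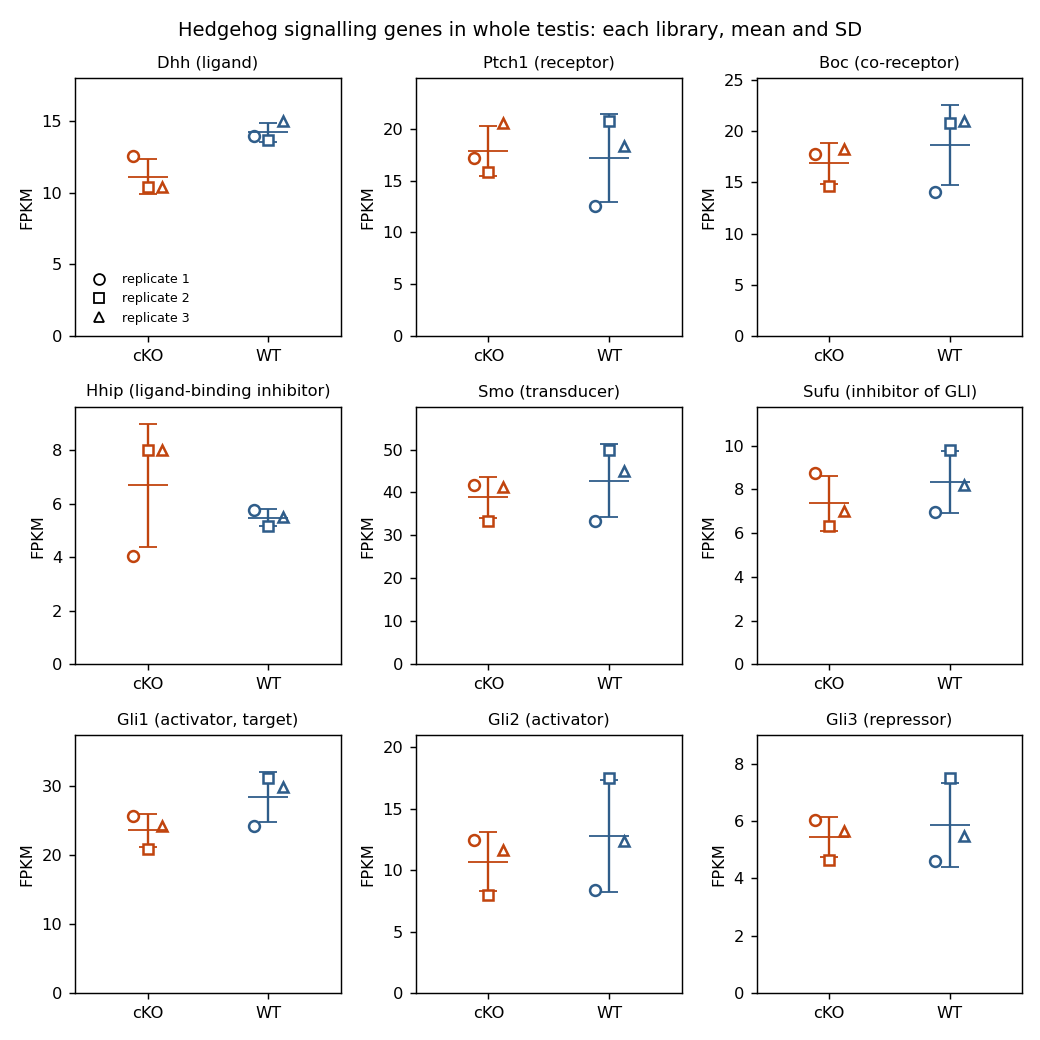
FPKM of the 9 hedgehog genes in each library (cKO left, WT right; marker shape gives the replicate number), with the group mean as a wide bar and the SD as whiskers, n = 3 per group. Dhh is the only one of the 9 genes whose groups do not overlap, at 10.4 to 12.6 FPKM in cKO and 13.7 to 15.0 FPKM in WT.

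Dhh, the ligand, was the hedgehog gene with the clearest separation between genotypes. It was at 12.6, 10.4 and 10.4 FPKM in cKO testis, against 13.9, 13.7 and 15.0 FPKM in WT testis. Every cKO library lay below every WT library. The means were 11.1 ± 1.24 FPKM in cKO and 14.2 ± 0.676 FPKM in WT (SD, n = 3 each), so the cKO mean was 78.2% of the WT mean. The log2 difference was -0.33 (SE 0.12, 95% interval -0.60 to -0.07, limma adjusted p = 0.379, unadjusted p = 0.0207), so Dhh did not pass over all genes. By an exact two-sided permutation test p was 0.1, which is as low as 6 libraries in groups of 3 allow. The unadjusted p was above 0.05 without cKO replicate 2 (0.0804), without cKO replicate 3 (0.0828), without WT replicate 3 (0.0776) and on the TPM scale (0.0727), all by limma. Groups did not overlap for 18.6% of all tested genes and were lower in cKO without overlap for 9.92%, so 1 such gene among 9 is near the background. In bulk RNA, fewer cells of a type and less RNA per cell cannot be told apart.

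The Dhh gene (ENSMUSG00000023000) is on the minus strand of chromosome 15 (GRCm38, 98891152 to 98898540). Its annotated exons share 546 bases with Rhebl1 on the same strand and 1107 bases with Gm49442 on the opposite strand, and the sources used here do not say to which gene such reads were counted. Rhebl1 had 92 to 126 recovered reads in cKO and 118 to 189 in WT libraries, and Gm49442 16 to 39 in cKO and 21 to 41 in WT, against 746 to 943 in cKO and 976 to 1075 in WT for Dhh itself. Dhh therefore had more reads than either neighbour in every library. The 250 bases before the Dhh start site (RefSeq, GRCm38.p6, chr15:98898541-98898790, minus strand) are shown because Dhh is the gene whose groups separated. Capitals mark the GC box, GGGCGG or its complement CCGCCC:

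Dhh: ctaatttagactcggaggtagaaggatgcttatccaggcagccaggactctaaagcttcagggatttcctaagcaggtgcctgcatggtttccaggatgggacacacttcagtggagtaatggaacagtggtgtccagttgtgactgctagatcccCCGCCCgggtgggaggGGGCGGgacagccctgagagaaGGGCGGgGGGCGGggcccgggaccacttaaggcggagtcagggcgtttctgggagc

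The window holds 4 GC boxes, and 32.7% of the 32851 RefSeq windows of this length hold at least 1. It has a GC content of 59.6%. RefSeq windows were matched for 7 of the 9 genes, leaving out Gli1 and Boc. GC boxes were not particular to Dhh among them. The 250 bases before the RefSeq start site held 2 for Gli3 and for Hhip, 1 for Ptch1, for Gli2 and for Sufu, and 0 for Smo. The windows of Ptch1 (63565736 to 63565985) and Gli3 (15463473 to 15463722) lie inside the gene spans given below, not before them. The GLI consensus GACCACCCA, searched on both strands from 250 bases before to 50 after the start site, was in none of these 7 windows and in 0.253% of all windows. These matches are descriptions of the letters in short windows and say nothing about binding.

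Ptch1, the DHH receptor and a target of the pathway, was nearly equal in both genotypes. It was at 17.2, 15.8 and 20.5 FPKM in cKO testis, against 12.5, 20.7 and 18.3 FPKM in WT testis. The groups overlapped throughout, and WT replicate 1 was the lowest of the 6 libraries. On the log2 scale the difference was 0.07 (SE 0.19, 95% interval -0.37 to 0.51, limma adjusted p = 0.887). The gene is on chromosome 13 (GRCm38, 63508328 to 63573598, minus strand). The sign of its difference turned without WT replicate 1, at -0.13, and without cKO replicate 3, at -0.03.

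Boc, a co-receptor that binds hedgehog ligands together with PTCH1, was at 17.8, 14.6 and 18.3 FPKM in cKO testis, against 14.1, 20.8 and 20.97 FPKM in WT testis. The gene is on chromosome 16 (44485049 to 44558897, minus strand). The highest values were those of WT replicates 2 and 3, and the lowest value was that of WT replicate 1. The log2 difference was -0.12 (SE 0.17, 95% interval -0.52 to 0.28, limma adjusted p = 0.779). It was -0.30 without WT replicate 1, and -0.02 without cKO replicate 2.

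Hhip, a membrane protein that binds and sequesters hedgehog ligands and is induced by the pathway, had the widest spread relative to its mean among the cKO values. It was at 4.04, 8.02 and 8.02 FPKM in cKO testis, against 5.78, 5.17 and 5.51 FPKM in WT testis. cKO replicates 2 and 3 lay above every WT library and cKO replicate 1 lay below every WT library. The SD was 2.30 FPKM in cKO and 0.307 FPKM in WT (n = 3 each). For Hhip the log2 difference was 0.20 (SE 0.22, 95% interval -0.32 to 0.71, limma adjusted p = 0.722). Hhip is on chromosome 8 (79965851 to 80058006, minus strand). Without cKO replicate 1 the difference was 0.48 (limma adjusted p = 0.228), and without cKO replicate 2 or 3 it was 0.06.

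Smo, the membrane protein that passes the signal on once PTCH1 is bound, had the highest level of the 9 genes. It was at 41.8, 33.5 and 41.3 FPKM in cKO testis, against 33.3, 49.9 and 45.0 FPKM in WT testis. cKO replicate 2 and WT replicate 1 were low and nearly equal. Smo is on chromosome 6 (29735503 to 29761365, plus strand). The log2 difference was -0.12 (SE 0.17, 95% interval -0.52 to 0.28, limma adjusted p = 0.774). It was -0.29 without WT replicate 1, and -0.0024 without WT replicate 2.

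Sufu, which holds GLI proteins in the cytoplasm, was at 8.74, 6.33 and 7.02 FPKM in cKO testis, against 6.98, 9.81 and 8.20 FPKM in WT testis. Sufu is on chromosome 19 (46396896 to 46488804, plus strand). The groups overlapped, since cKO replicate 1 lay above 2 of the 3 WT libraries. Its log2 difference was -0.16 (SE 0.16, 95% interval -0.52 to 0.21, limma adjusted p = 0.684). Without cKO replicate 1 it was -0.27, and without WT replicate 2 it was -0.05.

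Gli1, the activator whose own transcription depends on the pathway, was the most abundant GLI gene. It was at 25.6, 20.9 and 24.3 FPKM in cKO testis, against 24.2, 31.1 and 29.8 FPKM in WT testis. WT replicates 2 and 3 lay above every cKO library, while WT replicate 1 lay within the cKO range. For Gli1 the log2 difference was -0.26 (SE 0.14, 95% interval -0.57 to 0.06, limma adjusted p = 0.468). It kept its sign without any 1 library, from -0.36 without WT replicate 1 to -0.17 without cKO replicate 2. Gli1 is on chromosome 10 (127329882 to 127341974, minus strand). It shares 62 exon bases with Arhgap9 on the opposite strand, which was at 1.55 to 1.90 FPKM in cKO and 1.02 to 1.68 FPKM in WT testis.

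Gli2, the main activator of the early response, had the widest spread relative to its mean among the WT values. It was at 12.5, 7.95 and 11.6 FPKM in cKO testis, against 8.38, 17.5 and 12.4 FPKM in WT testis. Gli2 is on chromosome 1 (118834132 to 119053619, minus strand). WT replicates 1 and 2 lay farther apart than the lowest and highest cKO libraries. For Gli2 the log2 difference was -0.20 (SE 0.26, 95% interval -0.80 to 0.39, limma adjusted p = 0.754), and it was 0.04 without WT replicate 2.

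Gli3, which acts mainly as a repressor when ligand is absent, was at 6.03, 4.65 and 5.66 FPKM in cKO testis, against 4.62, 7.50 and 5.49 FPKM in WT testis. The cKO values all lay inside the WT range. Gli3 is on chromosome 13 (15463235 to 15730026, plus strand) and shares 188 exon bases with the antisense gene Gm6556, which had 37 to 54 recovered reads in cKO and 20 to 47 in WT libraries, against 786 to 987 in cKO and 704 to 1207 in WT for Gli3. The log2 difference was -0.08 (SE 0.17, 95% interval -0.47 to 0.32, limma adjusted p = 0.863). Its sign turned without WT replicate 2, at 0.09, and without cKO replicate 2, at 0.02.

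**Figure D2:**
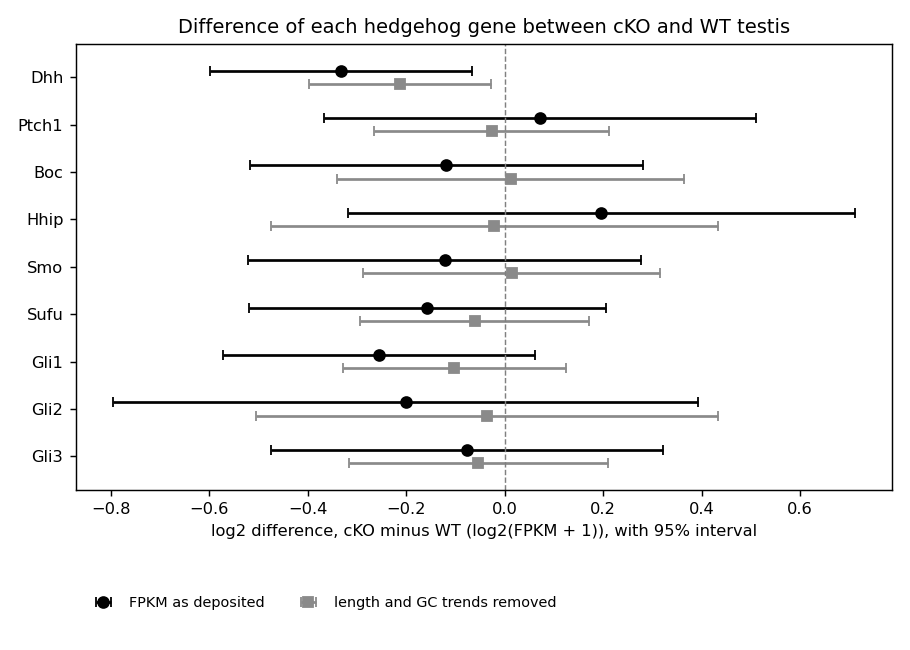
Log2 difference of each hedgehog gene, cKO minus WT, on the log2(FPKM + 1) scale with its 95% interval from limma, for FPKM as deposited (black circles) and with the length and GC trends of every library taken out (grey squares). Only the Dhh interval lies on 1 side of 0, at -0.60 to -0.07 as deposited and -0.40 to -0.03 with the trends removed, and neither value passed over all genes.

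The spread between libraries was larger than the counting error for every gene and genotype. Each gene had 626 to 4934 recovered reads per library, which gives a counting error of 1.53 to 3.51%, whereas the SD between libraries of a genotype was 4.75 to 35.8% of the mean. For Dhh the SD between libraries was 11.2% of the mean in cKO and 4.75% in WT, and for Gli2 it was 22.5% in cKO and 35.8% in WT. Such intervals of a count cover counting error only. Of the 9 log2 differences 7 were negative and 2 positive, with a median of -0.12, beside a median of 0.00 over all tested genes, of which 7004 were negative and 7234 positive.

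Levels per length kept much the same order in both genotypes. In cKO testis the order of mean FPKM was Smo, Gli1, Ptch1, Boc, Dhh, Gli2, Sufu, Hhip and Gli3, and in WT testis it was Smo, Gli1, Boc, Ptch1, Dhh, Gli2, Sufu, Gli3 and Hhip. The libraries of Smo lay above those of Gli1, and those of Gli1 above those of the gene that followed, in both genotypes, and in cKO testis those of Boc lay above those of Dhh. All other neighbours in these orders overlapped. The balance of the GLI genes was close in both genotypes: of the summed FPKM of Gli1, Gli2 and Gli3, Gli1 made up 59.6 ± 2.41% in cKO and 61.0 ± 4.99% in WT, Gli2 26.7 ± 2.55% in cKO and 26.5 ± 4.36% in WT, and Gli3 13.7 ± 0.144% in cKO and 12.4 ± 0.926% in WT (SD, n = 3 each). The Gli3 share was 13.7, 13.9 and 13.6% in cKO libraries, against 12.4, 13.4 and 11.5% in WT libraries, with no overlap. These shares were computed after the data were seen and were not tested. For single genes, groups did not overlap for 18.6% of all tested genes. The shares were taken from FPKM as deposited, where the log2 differences were -0.26 for Gli1, -0.20 for Gli2 and -0.08 for Gli3. With the length and GC trends of every library taken out, they were -0.10, -0.04 and -0.05.

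Most of the hedgehog genes shared their low libraries, and Hhip did not. Of the 9 genes, 7 (Ptch1, Smo, Gli1, Gli2, Gli3, Sufu and Boc) were lowest in cKO replicate 2 within the cKO group, and the same 7 were lowest in WT replicate 1 within the WT group. WT replicate 2 held the highest WT value of 6 of the 9, and cKO replicate 1 the highest cKO value of 6. Hhip was lowest in cKO replicate 1 and WT replicate 2. The lowest Dhh values were nearly tied, at 10.39 FPKM in cKO replicate 3 and 10.42 FPKM in cKO replicate 2. In the WT group they were 13.7 FPKM in replicate 2 and 13.9 FPKM in replicate 1. Both gaps were smaller than the counting error of Dhh, 3.47% in cKO and 3.13% in WT, so its lowest library is not settled. As a description over the 6 libraries, the Pearson correlation of Gli1 was 0.89 with Smo, 0.88 with Sufu, 0.86 with Gli2 and with Boc, 0.77 with Gli3, 0.76 with Dhh, 0.51 with Ptch1 and -0.59 with Hhip. That of Ptch1 was 0.84 with Smo and with Boc, 0.79 with Gli2, 0.77 with Gli3, 0.52 with Sufu and 0.03 with Hhip. That of Dhh was 0.59 with Sufu, 0.38 with Smo and with Boc, 0.37 with Gli2, 0.25 with Gli3, -0.16 with Ptch1 and -0.69 with Hhip.

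The libraries also differed in how the values of all genes ran with length and with GC content, and most hedgehog transcripts are GC-rich. GC content was 55.5% for Dhh, 58.7% for Gli2, 57.2% for Gli1 and 56.8% for Smo, above the median of 50.7% over tested genes, and 49.2% for Ptch1 and 42.4% for Hhip, below it. In cKO replicate 2 the trend lay between -0.21 and 0.13 (log2) at the 9 genes and was negative for 8 of them, Hhip being the exception. In WT replicate 1 it lay between -0.28 and 0.03, and in WT replicate 2 between -0.02 and 0.16. Over the 54 combinations of gene and library, the trend and the gene's own value had the same sign in 46, and their Pearson correlation was 0.80, given as a description because the points share 6 libraries and 9 genes.

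With the trends removed, the Dhh difference was -0.21 (SE 0.08, 95% interval -0.40 to -0.03, limma adjusted p = 0.578). The other values moved towards 0: Gli1 was at -0.10, Sufu at -0.06, Gli3 at -0.05, Gli2 at -0.04, Ptch1 at -0.03, Hhip at -0.02, and Smo and Boc at 0.01. Ptch1, Hhip, Smo and Boc thereby changed sign. A trend that runs with the genotype is removed together with any difference of that shape, and both cannot be told apart in these libraries.

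**Figure D3:**
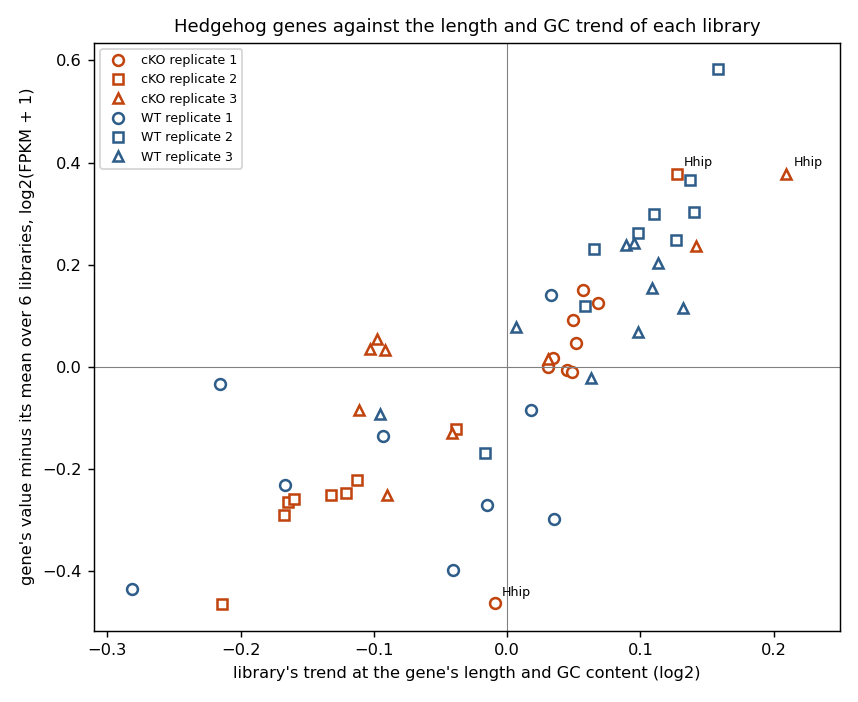
Each point is 1 of 9 hedgehog genes in 1 of 6 libraries. The horizontal axis gives the library's trend at the gene's length and GC content and the vertical axis the gene's log2(FPKM + 1) minus its mean over the 6 libraries. The 2 values share their sign in 46 of 54 points, with WT replicate 2 mostly at upper right and cKO replicate 2 mostly at lower left.

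The genes most like Dhh over the 6 libraries were Slc38a10 (Pearson correlation 0.999), Maz (0.995) and Zbtb45 (0.995), with GC contents of 58.6%, 62.9% and 59.2%. The genes most like Gli1 were Adgra2 (0.999), Tbc1d16 (0.996) and Eif4g1 (0.994), with 59.5%, 58.4% and 54.4% GC. The genes most like Ptch1 were P3h2 (0.997), Gpr173 (0.996) and Ncor1 (0.996), with 50.7%, 52.7% and 48.9% GC. The likeness is over 6 libraries in 2 groups and was picked as the highest of all tested genes, so it is a description.

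Sertoli cell markers were set beside Dhh, since the ligand comes from these cells. Of 20 markers tested, none passed over all genes (limma lowest adjusted p = 0.306). At an unadjusted p under 0.05, 10 of the 20 were lower, against 7.68% of all tested genes, and 0 were higher. The median log2 difference was -0.34, close to the Dhh value of -0.33, but the markers differed widely among themselves. Of the 20, 18 were negative and 2 positive, from -1.01 for Cst9 to 0.48 for Gata1. Wt1 was at -0.07 and Gata4 at -0.13, all 4 named after their values were seen. The summed level of the 20 markers was 1335 to 1539 FPKM in cKO and 1823 to 2348 FPKM in WT libraries, and none of them was at 0 in all libraries. Amh, the anti-Müllerian hormone gene, gave the largest part of this sum, at 330 to 454 FPKM in cKO and 619 to 907 FPKM in WT libraries. It averaged 383 ± 64.1 FPKM in cKO and 768 ± 144 FPKM in WT (SD, n = 3 each). Clu, which encodes clusterin, was at 288 ± 7.37 FPKM in cKO and 308 ± 36.8 FPKM in WT.

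Relative to the mean of the 20 markers, on the log2(FPKM + 1) scale, Dhh stood at -0.86, -1.13 and -1.13 in cKO libraries, against -1.10, -0.96 and -1.12 in WT libraries. The difference was 0.02 and the groups overlapped (exact two-sided permutation p = 1). It was -0.07 without cKO replicate 1, -0.01 without WT replicate 3, and -0.17 against the median in place of the mean of the markers. A p of this size does not show that Dhh and the markers moved alike. Schwann cells of nerves also make DHH. Their markers were low and did not go 1 way. Sox10, a transcription factor gene of these cells, was at 3.23, 3.01 and 2.65 FPKM in cKO libraries, against 3.50, 3.90 and 5.65 FPKM in WT libraries, lower without overlap. S100b, which encodes a calcium-binding protein, was at 0.947, 0.765 and 0.702 FPKM in cKO libraries, against 0.593, 0.241 and 0.537 FPKM in WT libraries, higher without overlap and below the filter. Mbp, a myelin protein gene, averaged 2.20 ± 0.267 FPKM in cKO and 2.45 ± 0.0823 FPKM in WT. Gfap averaged 0.456 ± 0.302 FPKM in cKO and 0.406 ± 0.0402 FPKM in WT, and Cdh19 0.268 ± 0.199 FPKM in cKO and 0.199 ± 0.0598 FPKM in WT (SD, n = 3 each). Mbp, S100b, Gfap and Cdh19 were named after their values were seen. The part of Sertoli or Schwann cell markers in the Dhh difference was not tested.

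**Figure D4:**
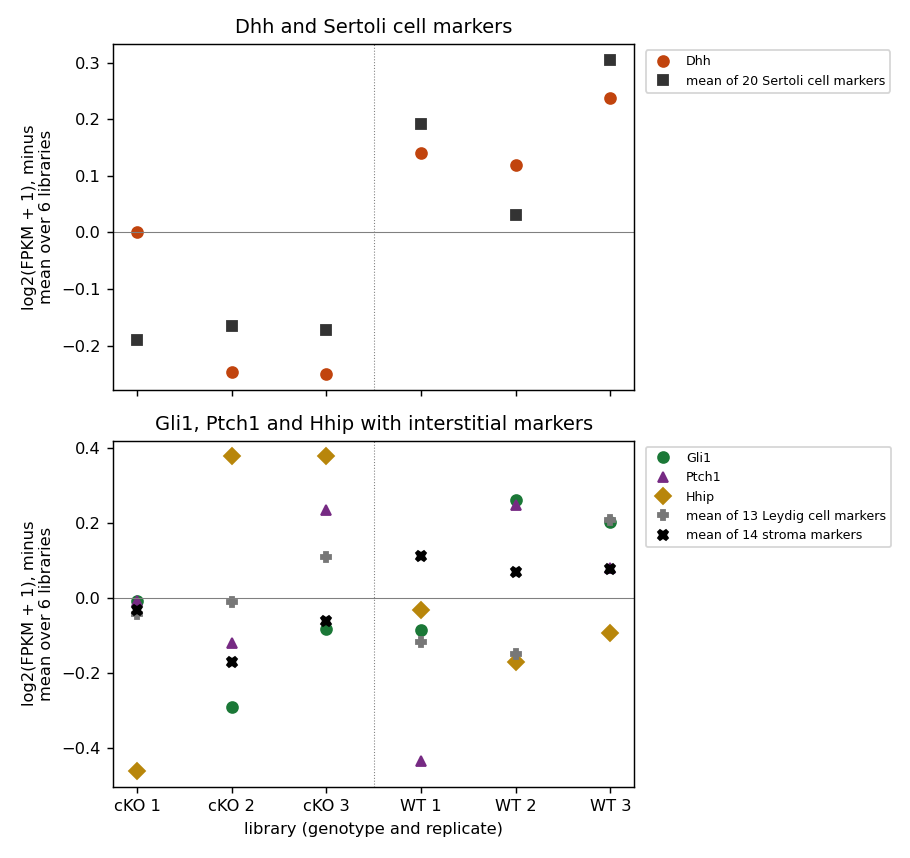
Values per library on the log2(FPKM + 1) scale, each minus its mean over the 6 libraries (cKO left, WT right of the dotted line). Upper panel, Dhh with the mean of 20 Sertoli cell markers, both lower in the cKO libraries without overlap; lower panel, Gli1, Ptch1 and Hhip with the means of 13 Leydig cell and 14 stroma markers, where Hhip spans -0.46 to 0.38 within the cKO group.

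The cells that receive the signal were followed through Leydig, peritubular and stroma markers. None of their markers passed over all genes by limma. Of 13 Leydig cell markers tested, 1 was higher and 0 lower at an unadjusted p under 0.05, against 4.65% higher and 7.68% lower of all tested genes, with a median log2 difference of 0.01 and a summed level of 1793 to 2039 FPKM in cKO and 1566 to 2275 FPKM in WT libraries. Of the 17 Leydig cell markers listed, Cyp2a4, Hsd3b6, Ldhd and Vcam1 lay below the filter. Cyp17a1, a steroid hydroxylase gene, was at 761 ± 66.0 FPKM in cKO and 674 ± 122 FPKM in WT, and Hsd3b1, a steroid dehydrogenase gene, was at 357 ± 38.2 FPKM in cKO and 312 ± 99.6 FPKM in WT (SD, n = 3 each). Of 11 peritubular myoid markers, 2 were lower and 0 higher at that level, against the same shares of all tested genes, with a median of -0.02 and a summed level of 379 to 427 FPKM in cKO and 405 to 480 FPKM in WT libraries; Tagln lay below the filter. Acta2, the smooth muscle actin gene, was at 169 ± 17.7 FPKM in cKO and 172 ± 15.6 FPKM in WT, and Myl9, a myosin light chain gene, was at 125 ± 12.3 FPKM in cKO and 153 ± 16.7 FPKM in WT. Of 14 stroma and progenitor markers, 3 were lower, against 7.68% of all tested genes, and 0 higher, with a median of -0.18 and a summed level of 960 to 1189 FPKM in cKO and 1210 to 1270 FPKM in WT libraries, without overlap. The part of these lists in the values of the hedgehog genes was not tested. The collagen gene Col1a1 was at 325 ± 72.4 FPKM in cKO and 392 ± 51.7 FPKM in WT, and Col3a1 at 281 ± 20.8 FPKM in cKO and 307 ± 18.4 FPKM in WT. Named after their values were seen, the calls at an unadjusted p under 0.05 were Lhcgr, the luteinizing hormone receptor gene, higher among Leydig cell markers, and, all lower, Tpm2 and Des among myoid and Tcf21, Fbln1 and Gsn among stroma markers. Lhcgr was at 13.4, 15.03 and 17.9 FPKM in cKO libraries, against 8.19, 11.6 and 12.04 FPKM in WT libraries, without overlap (limma adjusted p = 0.379).

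Gli1, Ptch1 and Hhip were each set against the mean Leydig and the mean stroma marker, 6 comparisons in all. Hhip against stroma markers differed by 0.37, where the values were -2.91, -1.93 and -2.04 in cKO libraries, against -2.63, -2.72 and -2.65 in WT libraries. cKO replicate 1 lay below all WT libraries and the other 2 above them. The difference was 0.68 without cKO replicate 1 and 0.19 without cKO replicate 2. Gli1 against Leydig markers differed by -0.29, at -1.04, -1.35 and -1.27 in cKO libraries and -1.04, -0.66 and -1.08 in WT libraries, and by -0.16 without WT replicate 2. The remaining differences were 0.25 for Ptch1 against stroma, 0.16 for Hhip against Leydig, -0.08 for Gli1 against stroma and 0.03 for Ptch1 against Leydig markers. Leaving out 1 library at a time, Ptch1 against stroma lay between 0.034 (without WT replicate 1) and 0.40 (without WT replicate 2), and Hhip against Leydig between 0.0038 (without cKO replicate 2) and 0.41 (without cKO replicate 1). Gli1 against stroma lay between -0.20 (without WT replicate 1) and -0.0047 (without WT replicate 2). Ptch1 against Leydig lay between -0.12 (without WT replicate 1) and 0.24 (without WT replicate 2). Exact two-sided permutation p-values were 0.2 to 0.9, and 0.72 to 0.9 adjusted over the 6 comparisons. With 3 libraries a group such a p cannot go below 0.1, so no comparison could have passed the threshold. The test therefore cannot decide whether any of the 6 differed between genotypes.

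The other genes of the pathway gave no call over all genes by limma in any of 4 lists. Among 8 other ligands and ligand-processing genes, 5 were tested, all with a negative difference, and 0 had an unadjusted p under 0.05. Shh, the paralogous ligand, was at 0.658 to 1.38 FPKM in cKO and 0.858 to 1.35 FPKM in WT, and Ihh at 0.322 to 0.577 FPKM in cKO and 0.322 to 0.536 FPKM in WT, so Dhh was the most abundant hedgehog ligand in every library. Scube1, a secreted relative of proteins that carry the lipid-modified ligand, was at 9.64 ± 1.63 FPKM in cKO and 11.5 ± 2.83 FPKM in WT. Disp1, which releases the ligand from the cell, was at 5.57 ± 0.378 FPKM in cKO and 6.01 ± 1.36 FPKM in WT, and Scube3 at 4.18 ± 1.23 FPKM in cKO and 4.74 ± 0.880 FPKM in WT (SD, n = 3 each).

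Of 6 other receptors and co-receptors, 4 were tested, 3 with a negative and 1 with a positive difference, and 0 had an unadjusted p under 0.05. Gpc3, a glypican that binds hedgehog ligands and limits signalling, was at 193 ± 12.01 FPKM in cKO and 203 ± 14.4 FPKM in WT. Gas1, a co-receptor, was at 52.2 ± 8.90 FPKM in cKO and 61.0 ± 3.78 FPKM in WT (SD, n = 3 each). The positive value was that of Cdon, a co-receptor related to Boc and named after its values were seen, at 26.4, 23.4 and 29.0 FPKM in cKO libraries, against 13.8, 25.6 and 26.6 FPKM in WT libraries. WT replicate 1 was far below the other 5 libraries.

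All 22 ciliary and cytoplasmic transducers were tested, 12 with a positive and 10 with a negative difference (median 0.04). The protein kinase A genes Prkar1a and Prkaca, whose kinase phosphorylates GLI proteins, were at 119 ± 6.96 FPKM in cKO and 114 ± 13.97 FPKM in WT and at 58.6 ± 6.56 FPKM in cKO and 65.0 ± 5.78 FPKM in WT (SD, n = 3 each). At an unadjusted p under 0.05, 3 of the 22 were lower and 1 higher, against 7.68% lower and 4.65% higher of all tested genes. Evc2, a ciliary partner of SMO, was at 6.76, 5.28 and 5.53 FPKM in cKO, against 7.72, 7.17 and 7.96 FPKM in WT, a log2 difference of -0.34 (limma adjusted p = 0.380). Ulk3, a kinase that acts on GLI proteins, was at 2.90, 2.21 and 2.46 FPKM in cKO, against 3.07, 3.58 and 3.998 FPKM in WT, a log2 difference of -0.37 (limma adjusted p = 0.381). The other 2, named after their values were seen, were Kif7, the kinesin of the cilium tip, at -0.37 (limma adjusted p = 0.389), and Cul3, a ubiquitin ligase subunit that acts on GLI proteins, at 0.30 (limma adjusted p = 0.398).

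Of 15 further reported target genes, 12 were tested, 8 with a negative and 4 with a positive difference (median -0.07), and at an unadjusted p under 0.05, 1 was lower and 1 higher, against 7.68% and 4.65% of all tested genes. Mycn, a proliferation factor, was at 10.8, 11.3 and 11.5 FPKM in cKO testis, against 16.9, 14.2 and 16.5 FPKM in WT testis. Its log2 difference was -0.46 (SE 0.11, 95% interval -0.72 to -0.21, limma adjusted p = 0.361). Foxf1, a forkhead factor of mesenchyme, went the other way, at 3.30, 2.44 and 2.44 FPKM in cKO testis, against 1.69, 1.85 and 1.32 FPKM in WT testis. Its log2 difference was 0.50 (SE 0.16, 95% interval 0.14 to 0.87, limma adjusted p = 0.378). The groups of both genes did not overlap, in opposite directions. The most abundant targets were Rab34, a GTPase of cilium formation, at 32.6 ± 1.22 FPKM in cKO and 36.4 ± 2.39 FPKM in WT, and Nr2f2, a nuclear receptor gene that marks interstitial progenitors, at 33.7 ± 1.41 FPKM in cKO and 35.2 ± 1.42 FPKM in WT (SD, n = 3 each).

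**Figure D5:**
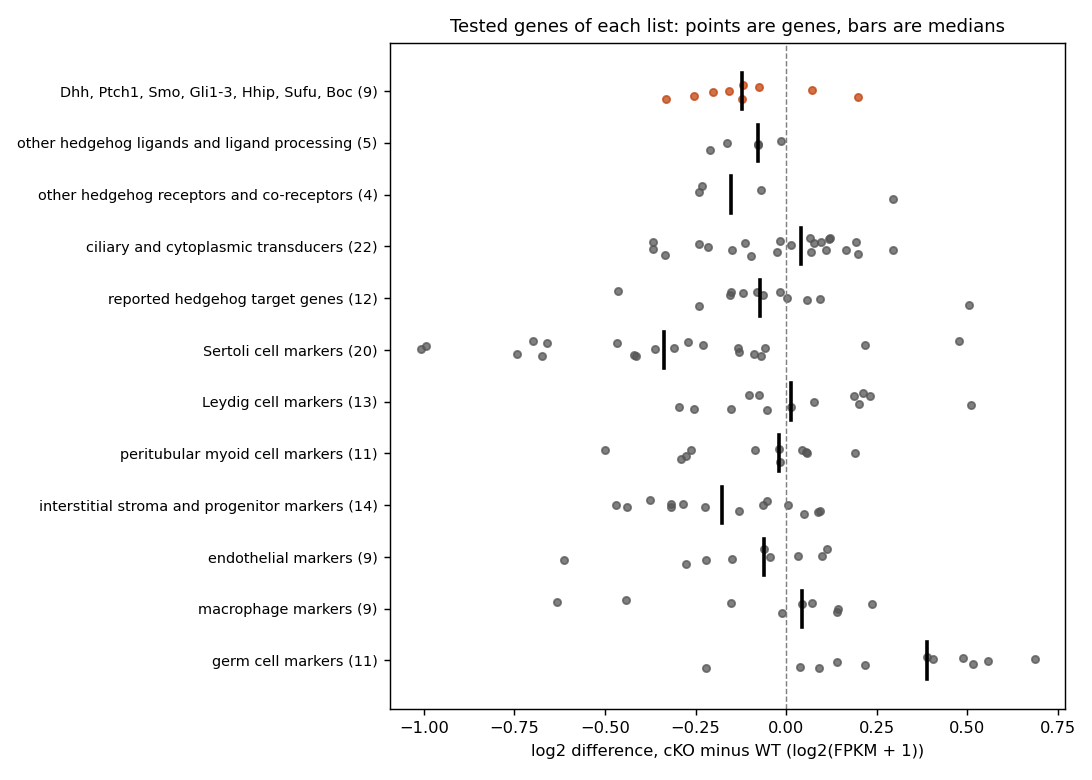
Log2 difference, cKO minus WT, of each tested gene of the 9 hedgehog genes and of 11 lists (number of tested genes in brackets), with the list median as a black bar. The hedgehog genes run from -0.33 for Dhh to 0.20 for Hhip, the Sertoli cell markers have a median of -0.34 and the germ cell markers of 0.39, and no point shown passed over all genes.

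The remaining cell types bear on bulk levels. Endothelial markers (9 tested, 2 lower and 0 higher at an unadjusted p under 0.05, median log2 difference -0.06) were led by Cdh5 at 37.2 ± 4.51 FPKM in cKO and 39.1 ± 7.40 FPKM in WT and by Pecam1 at 10.9 ± 0.803 FPKM in cKO and 12.2 ± 0.813 FPKM in WT. Macrophage markers (9 tested, 2 lower and 0 higher, median 0.04) were led by Lyz2 at 61.5 ± 25.8 FPKM in cKO and 49.8 ± 7.47 FPKM in WT and by C1qb at 5.13 ± 0.315 FPKM in cKO and 7.35 ± 0.652 FPKM in WT. Germ cell markers (11 tested, 3 higher and 0 lower, median 0.39) were led by Mael at 94.6 ± 21.8 FPKM in cKO and 83.5 ± 31.3 FPKM in WT and by Ddx4 at 49.0 ± 10.6 FPKM in cKO and 37.1 ± 10.01 FPKM in WT (SD, n = 3 each). Named after their values were seen, the calls at an unadjusted p under 0.05 were Egfl7 and Tie1 among endothelial markers, C1qa beside C1qb among macrophage markers, all lower, and Tex14, Tex15 and Dazl among germ cell markers, all higher. Of these Tex15 was at 14.7, 14.6 and 12.5 FPKM in cKO libraries, against 7.97, 11.5 and 6.11 FPKM in WT libraries, with no overlap. The shares of all tested genes at that level were 7.68% lower and 4.65% higher. Gfra1 and Zbtb16, also listed as germ cell markers, lay below the filter. The summed germ cell level was 189 to 278 FPKM in cKO and 139 to 242 FPKM in WT libraries. Its part in the values of the hedgehog genes was not tested.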

How the data were processed

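RNA of whole mouse testis was sequenced in 6 libraries, 3 cKO and 3 WT, grouped by the genotype in the labels. The deposited table gives FPKM as computed by the authors. Trizol was used for extraction and a SMARTER kit for the libraries, per the labels' protocols. Builds GRCm38 and mm10 are named, per the submitters' processing notes; aligner, counter and strand use: not given in the sources used here. Reads per gene were recovered from FPKM and length, since 100% of the products were whole multiples of the library's smallest step within 0.01. Of 52133 identifiers shared with GENCODE M21, 1551 had the same start, so positions are those of GENCODE M21, looked up by identifier.

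Differences (cKO minus WT) of log2(FPKM + 1) were tested in R 4.3.3 by limma 3.58.1, allowing for a mean-variance trend, on the 14238 genes averaging 1 FPKM or more. P-values were adjusted over all of them by Benjamini-Hochberg, and 0.05 was the threshold. This scale understates changes of low genes. The procedure was tested on simulated data. Length and GC trends were natural splines with 5 degrees of freedom, and GC content, read from the transcripts of GENCODE M21, was available for 97.9% of the genes tested. Limma voom on recovered reads used genes with at least 10 reads in at least 3 libraries. The members and lists were chosen with earlier results of these data known. Named by rule were the 9 genes, Srsf2, the 2 most abundant genes of each list, the 2 with the lowest p of each pathway list, and the 3 genes most like Dhh, Ptch1 and Gli1. Some genes that the rule names are not reported here. Other alternatives were pseudocounts, filters, scalings, limma options, the replicate number as a block and leaving out each library. Python 3.11.15, pandas 2.3.3 and numpy 2.4.6 were used.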

Additional observations from a re-analysis of the deposited data

How the results depend on the processing

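None of the 9 hedgehog genes passed over all genes under any of the 18 alternatives. The log2 difference of Dhh stayed negative in all 18: -0.36 to -0.21 with other settings and -0.42 to -0.29 when 1 library was left out. Its unadjusted p lay between 0.00778 and 0.0828 and its adjusted p between 0.228 and 0.842. The count of all genes past the threshold was 2, and it was 1 with a pseudocount of 0.1 or 0.5, a filter at a mean FPKM of 5, the TPM scale, median-of-ratios scaling or voom, 0 with no filter or upper-quartile scaling, and 3 with length and GC trends removed. It was 0 without any 1 library. At an unadjusted p under 0.05, 1756 genes were called as deposited.

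Gli1 and Sufu kept their negative sign under the alternatives run. With the length and GC trends removed, Ptch1 was -0.027, Smo 0.014, Hhip -0.021 and Boc 0.012, each with its sign turned. Leaving out 1 library gave -0.13 to 0.21 for Ptch1, -0.45 to 0.039 for Gli2 and -0.21 to 0.088 for Gli3. The value of Dhh against Sertoli cell markers was -0.17 with the median of the markers and ran from -0.070 to 0.069 without 1 library. Gli1 against stroma markers was 0.013 with the median. Ptch1 against Leydig markers ran from -0.12 to 0.24 without 1 library. The cause of these changes was not tested.

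Whether the replicate numbers pair the samples is not known from the sources used here. Deviations of same-numbered libraries from their group means correlated at 0.09, -0.33 and 0.39. These values cannot decide it, because the deviations of 3 libraries around their mean are tied to one another. With the replicate block 0 genes and 0 hedgehog genes passed, and the Dhh difference was -0.33 (limma adjusted p = 0.410). The lists of pathway and marker genes gave 0 calls over all genes without any 1 library. With 3 libraries a group, exact permutation tests cannot go below 0.1.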
